A study of Mus musculus with 8 samples.

Results

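The data described here are those of 2 of the 32285 genes counted in nuclei of the mouse hippocampus, Slc12a2 and Slc12a5, together with the 16 of 253748 open chromatin regions that lie over these genes or within the 2000 bases before their starts. Both genes were chosen by name and not by a rule on their values, although earlier results of these data were known. All 16 regions are accounted for. Slc12a2 encodes NKCC1, a cotransporter that carries sodium, potassium and chloride into the cell. Slc12a5 encodes KCC2, a neuronal cotransporter that carries potassium and chloride out.

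As background, the balance of these transporters sets the chloride level of a neuron and with it the effect of GABA, which opens chloride-permeable channels. Immature neurons rely on NKCC1, keep chloride high and are depolarised by GABA, and as they mature KCC2 is raised, chloride falls and GABA becomes inhibitory. The dentate gyrus keeps adding granule neurons after birth, so immature and mature granule neurons lie side by side in it at postnatal day 21. WNK kinases, acting through the kinases SPAK and OSR1, switch NKCC1 on and KCC2 off. NKCC1 is also made outside neurons, among other cells in the oligodendrocyte lineage.

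The hippocampi came from wild-type male C57BL/6J pups collected at P21. Their dams, 8 weeks old at the start, received a diet with 2 mg/kg folic acid (FA; the MF group) or 20 mg/kg FA (the HF group) before mating and until the end of lactation. RNA and open chromatin (ATAC) were read from the same nuclei in 2 libraries per diet, called MF1, MF2, HF1 and HF2. The number of pups behind a library is not given in the sources used here, so the 4 libraries and not the pups are the unit of the tests. Between diets, p-values refer to the spread between libraries, and between types or stages to the spread of the differences within libraries. The tests estimate this spread with the help of all genes or regions in a fit. The spread of a single gene or region thus enters only in part, and hardly at all in the ATAC fits between types. Fewer molecules per nucleus and a different make-up of the nuclei of a type cannot be told apart in the sums of a library.

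After filters, 2249 to 3473 nuclei per library remained with 20151562 to 29243072 RNA molecules (unique molecular identifiers, UMIs), and 8 to 20 barcodes were shared between a pair of libraries. Of the 11518 nuclei, 9067 (78.7%) fell into clusters that could be named from marker genes. These were CA1 and CA3 pyramidal neurons, mature and immature dentate granule neurons (DG-M and DG-i), inhibitory neurons (INH), Cajal-Retzius neurons (CR), astrocytes (AST), oligodendrocyte precursors (OPC), committed precursors (COP), oligodendrocytes (ODC), microglia (MG), proliferating nuclei (PRO) and vascular nuclei (VAS). Each name means only that a cluster is like that type in its markers. In the 12 types other than VAS, which had too few nuclei to be fitted, 7 of 10 (CA1), 10 of 17 (DG-M), 15 of 16 (DG-i) and 12 of 12 (ODC) markers were highest in their own type, and no marker was at 0 in its own type. Both transporter genes were left out of the genes used for clustering. The clusters still come from the RNA of the same nuclei, whereas the ATAC counts took no part in making them.

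Slc12a5 (ENSMUSG00000017740.17) lies at chr2:164960802-164999731 on the plus strand of mm10 and has 10 annotated transcripts. Its coding transcripts start in 2 places. The upstream starts at 164960824 and 164960846 give the isoform known as KCC2a, and the downstream starts at 164967983 and 164968239 give KCC2b, the form that prevails in the mature brain. The 2 promoters of Slc12a5 are shown because the granule neuron stages differed at both, and 2 further regions are shown because they differed most. The stretches before the starts come from the RefSeq promoter table (GRCm38.p6) and stop before the start they belong to and hold no untranslated base (the downstream stretch lies within the longer transcripts that begin at the upstream starts), and the other 2 are the central 300 bases of the regions. Capitals mark matches to 6 motifs searched on both strands, namely GGGCGG (the GC box), CACGTG (an E-box), TGANTCA (AP-1), TATAAA (the TATA box), GCGNGGGCG (EGR, which can overlap a GC box) and the longer REST motif.
upstream promoter, chr2:164960596-164960801: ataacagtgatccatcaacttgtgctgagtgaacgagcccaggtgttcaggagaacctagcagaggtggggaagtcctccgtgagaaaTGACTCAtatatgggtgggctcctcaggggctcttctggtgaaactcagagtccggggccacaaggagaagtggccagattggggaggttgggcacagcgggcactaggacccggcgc
downstream promoter, chr2:164967738-164967982: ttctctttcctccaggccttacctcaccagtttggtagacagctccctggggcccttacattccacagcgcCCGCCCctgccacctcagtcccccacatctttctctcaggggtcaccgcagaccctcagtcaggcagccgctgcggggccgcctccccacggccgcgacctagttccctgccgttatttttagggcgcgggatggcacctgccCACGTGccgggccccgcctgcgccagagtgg
centre of chr2:164976242-164977213: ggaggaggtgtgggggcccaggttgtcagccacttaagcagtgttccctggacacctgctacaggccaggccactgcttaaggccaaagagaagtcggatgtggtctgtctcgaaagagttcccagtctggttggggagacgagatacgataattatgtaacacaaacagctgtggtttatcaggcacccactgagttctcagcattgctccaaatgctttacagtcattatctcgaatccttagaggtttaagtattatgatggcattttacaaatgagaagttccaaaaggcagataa
centre of chr2:164994767-164995625: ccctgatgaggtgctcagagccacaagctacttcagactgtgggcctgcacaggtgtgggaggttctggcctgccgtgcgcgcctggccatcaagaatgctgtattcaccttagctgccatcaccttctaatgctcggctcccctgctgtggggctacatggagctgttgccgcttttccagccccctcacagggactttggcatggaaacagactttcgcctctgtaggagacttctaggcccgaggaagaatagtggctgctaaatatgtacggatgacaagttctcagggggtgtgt
The upstream stretch of 206 bases held 1 AP-1 match at 164960684, a motif found in 7.81% of 32851 RefSeq promoters of 300 bases and in 14.0% of 154764 region centres of that length. The downstream stretch of 245 bases held a GC box at 164967809 (35.7% of promoters) and an E-box at 164967952 (7.15% of promoters). No match to these letters fell in the 2 region centres. Over their whole length the region at the upstream starts held 6 GC boxes, and that at the downstream starts held 4 GC boxes and 1 EGR match. The intronic region chr2:164970578-164971519 held 4 GC boxes and 2 EGR matches, so such counts were not particular to the promoters. The shares given are for 300 bases and do not apply to whole regions. Neither promoter region held the REST motif, which occurs in 0.0122% of promoters and so is missing from nearly all of them. A match is a description of the letters and not a binding site.

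Slc12a2 RNA was highest in ODC. The gene (ENSMUSG00000024597.11) lies at chr18:57878678-57946821 on the plus strand of mm10 and has a single coding start, at 57878678. Values are CPM, the UMIs of the gene relative to all UMIs of a type, given in the order MF1, MF2, HF1, HF2. In ODC they were 1023, 796, 805 and 1057 CPM, with a mean of 920.1 ± 139 (SD, n = 4 libraries). In COP they were 284, 389, 295 and 409 CPM (344 ± 64.0), and in MG 237, 194, 206 and 188 CPM (206 ± 21.7). No library of ODC overlapped any library of COP or MG. Of the types in the fits, OPC followed at 109 ± 19.0 CPM and DG-i at 86.3 ± 1.72 CPM. The next types were PRO (79.8), CR (65.3), INH (65.2), DG-M (53.9 ± 5.01), CA3 (47.7), AST (37.6) and CA1 (31.5 ± 4.18). Vascular nuclei, outside the fits, held 170 CPM (124 to 243), between MG and OPC. Among them, mural nuclei had a mean of 304 CPM (52.1 to 573, 58 UMIs in 35 nuclei), above the mean of MG. Vascular leptomeningeal nuclei had a mean of 143 CPM (37.9 to 243, 62 UMIs in 115 nuclei). ODC made up 6.62% of the named nuclei and held 37.8% of their Slc12a2 UMIs (2754 of 7280), and ODC and COP together held 51.3%.

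In a fit over the 12 types with the library as a block, the top of this order was separated by edgeR's quasi-likelihood test. ODC exceeded COP by 1.69 on the log2 scale (SE 0.0951, adjusted p = 5.55e-24), in a comparison in which 45.2% of 12441 genes were called. COP exceeded MG by 0.81 (adjusted p = 3.7e-08, 44.2% of genes called) and MG exceeded OPC by 0.86 (adjusted p = 2.19e-06, 45.3% called). The step from COP to MG depended on how the nuclei were clustered. With the chloride genes returned to the clustering COP held 149 CPM against 255 in MG, and at a higher resolution 169 against 261, so that its sign turned (log2 difference -0.55 and -0.50). COP then held 344 and 240 Slc12a2 UMIs in place of 984, and ODC 3394 and 3475 in place of 2754. The COP level and the shares of UMIs in ODC and COP thus rest on where the border between these types falls. OPC exceeded DG-i by 0.44 (adjusted p = 0.0306, 35.3% called), a call lost without MF2 (adjusted p = 0.203) or without HF1 (adjusted p = 0.0875). From DG-i downward no neighbouring pair passed the test (adjusted p = 0.0507 for INH over DG-M, the lowest of them).

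Depth differs between the types, from a median of 1796 UMIs in MG to 17679 in CA3, so nuclei were also thinned to 2000 UMIs, which left out 485 of the 781 MG nuclei and 13 of the 600 ODC nuclei. At this depth 76.3% of ODC nuclei held at least 1 Slc12a2 UMI, against 37.4% of COP, 34.1% of MG, 19.4% of OPC and 14.5% of DG-i nuclei. The share was 5.04% in CA1, 6.22% in AST and 8.90% in DG-M. Without thinning 94.3% of ODC nuclei (median depth 4640.5 UMIs) and 32.0% of CA1 nuclei (median depth 13596 UMIs) held a UMI. ODC nuclei thus stood highest although they were shallower than the pyramidal neurons.

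Slc12a5 RNA was highest in neurons. DG-M held 88.5, 74.4, 73.4 and 53.8 CPM (72.5 ± 14.3), CA1 held 75.7, 63.4, 55.0 and 54.8 CPM (62.2 ± 9.84) and INH held 66.2, 57.2, 58.9 and 58.5 CPM (60.2 ± 4.08). No pair of these 3 types passed the test (DG-M over CA1 by 0.12 on the log2 scale, adjusted p = 0.338, CA1 over INH by 0.12, adjusted p = 0.439, and DG-M over INH by 0.24, 95% interval 0.0073 to 0.47, adjusted p = 0.0802). PRO held 49.5 ± 14.0 and CA3 45.5 ± 6.84 CPM, and CR held 32.4 CPM on 21 UMIs. DG-i held 41.2, 17.7, 25.2 and 23.1 CPM (26.8 ± 10.1). Vascular nuclei, outside the fits, held a mean of 41.2 CPM (32.5 to 55.3) on 27 UMIs, above the means of CR and DG-i. In glia the mean ran from 25.4 CPM in MG over COP (20.5), OPC (16.7) and AST (12.2) to 7.62 in ODC. The MG and COP levels rested on the clustering, with MG at 10.6 CPM (14 UMIs) with the chloride genes returned and 10.4 CPM (13 UMIs) at a higher resolution, and COP at 24.8 and 9.22 CPM. The 6 neuronal types held 55.8% of the named nuclei and 90.4% of the Slc12a5 UMIs (3040 of 3361).

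Within the order only INH and PRO differed as neighbours (log2 difference 0.47, adjusted p = 0.0383, where 35.6% of genes were called), and this call was lost without MF2, HF1 or HF2 (adjusted p = 0.101, 0.117 and 0.168). The level in PRO rested on the clustering, since under the other clusterings the nuclei of this name were shallower and held 28.8 and 24.2 CPM on 22 and 18 UMIs. DG-i lay below CA1 by 1.5 on the log2 scale (adjusted p = 4.52e-12), below CA3 by 1.1 (adjusted p = 9.41e-07) and below INH by 1.37 (adjusted p = 1.82e-09). DG-i exceeded ODC (log2 difference 1.43, adjusted p = 0.000157) and AST (0.99, adjusted p = 0.00211), but its difference from OPC (0.61, adjusted p = 0.116), COP (0.30, adjusted p = 0.367) and MG (0.22, adjusted p = 0.539) did not pass the test. Under the other clusterings DG-i held 38.8 and 33.5 CPM, more than 3 times the MG levels just given, a difference that was not tested. In nuclei thinned to 2000 UMIs 13.6% of DG-M, 12.6% of CA1 and 12.3% of INH nuclei held a Slc12a5 UMI, against 4.15% of DG-i and 0.852% (ODC) to 3.38% (MG) of glial nuclei. Of the 77 vascular nuclei deep enough to be thinned 5.19% held one, more than in DG-i. MF1 was the highest library for Slc12a5 in 9 of the 12 types, among them ODC (17.2 CPM on 13 UMIs, against 3.93 to 4.94 CPM in the other libraries) and AST (23.2 against 6.54 to 10.3 CPM).

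**Figure D1:**
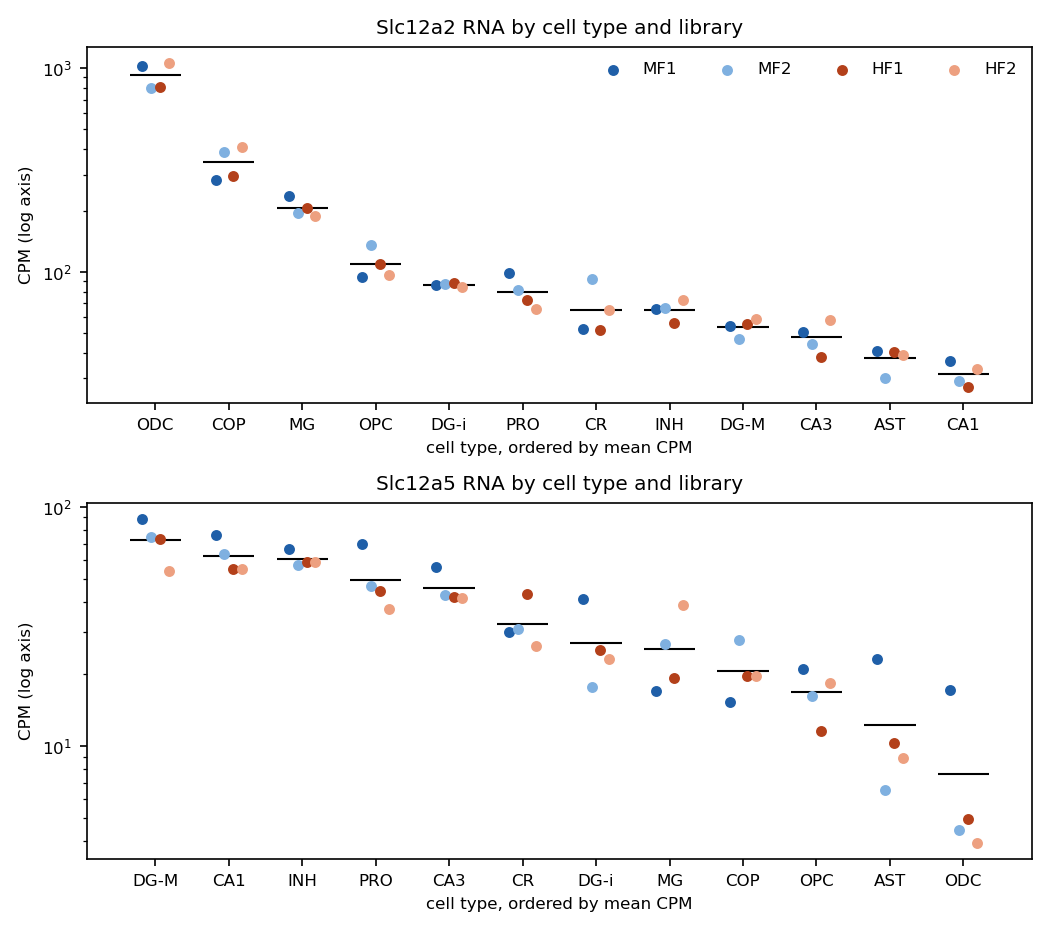
RNA level (CPM, log axis) of Slc12a2 and Slc12a5 by cell type, ordered by mean, with 1 point per library and a bar at the mean. Slc12a2 is highest in ODC at a mean of 920.1 CPM and lowest in CA1 at 31.5 CPM, and Slc12a5 is highest in DG-M at 72.5 CPM and lowest in ODC at 7.62 CPM.

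The orders of the 2 genes ran against each other over the types, with Pearson's r of -0.65 over 12 type means on the log2 scale, a description in which the points share their libraries. The number of Slc12a5 UMIs per Slc12a2 UMI, which has no correction for the different lengths of the genes and is set only between types, was 1.65 to 2.18 in CA1 and 0.914 to 1.63 in DG-M over the 4 libraries, and had a mean of 0.932 in INH. It was 0.204 to 0.477 in DG-i and 0.00371 to 0.0168 in ODC. The libraries of DG-i did not overlap those of CA1, CA3, DG-M or INH.

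Over 12440 genes, those whose mean log2 CPM over the 12 types was most like that of Slc12a2 were Pigz (Pearson's r 0.96), Wnt3 (0.95), Copa (0.95), Dst (0.95) and Smad7 (0.94). For Slc12a5 they were Gm10419 (0.98), Cx3cl1 (0.97), C030017B01Rik (0.97), B230209E15Rik (0.97) and Kctd16 (0.97). Over the 48 sums per library and type, r in the same order was 0.83, 0.84, 0.65, 0.91 and 0.91 for Slc12a2. For Slc12a5 it was 0.89, 0.88, 0.80, 0.87 and 0.87. Cx3cl1 encodes the neuronal chemokine fractalkine, and Kctd16 an auxiliary subunit of GABA B receptors.

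Open chromatin was counted as transposase insertions in regions merged from the peaks of the 4 libraries. It is given as CPM relative to the insertions of a type that fall in regions with a peak in all 4 libraries. Of 8 regions over Slc12a2, 4 had a peak in all 4 libraries, and of 8 over Slc12a5, 7 had. The region over the Slc12a2 start, chr18:57877922-57878879, was open in all 12 types, from 45.0 CPM in CA1 to 90.6 in OPC. The difference between ODC (88.7) and COP (81.7) did not pass the test there (log2 difference 0.12, adjusted p = 0.511), although that of their RNA did.

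The region that set the oligodendrocytes apart lay in an intron 8840 bases after the Slc12a2 start, at chr18:57887092-57887945. It held 32.5, 23.3, 29.4 and 36.8 CPM in the ODC libraries (30.5 ± 5.71, 235 insertions) and 9.57, 8.07, 3.92 and 6.53 CPM in COP (7.02 ± 2.41, 56 insertions). Every other type had a mean of at most 1.63 CPM. ODC exceeded COP by 2.18 on the log2 scale (SE 0.506, adjusted p = 0.000273), where 26.6% of 137502 regions were called, and COP exceeded MG by 4.05 (adjusted p = 9.54e-06, 38.1% called). Insertions were not counted under the other clusterings, in which the border between ODC and COP moved, so the COP value rests on this clustering. A neighbouring region, chr18:57889149-57890116, had a peak in 3 libraries (MF1, MF2 and HF2), in which ODC held 10.8, 11.6 and 4.36 CPM. In the same libraries COP held 1.13, 1.90 and 1.09 CPM and DG-i 1.78, 1.95 and 5.53 CPM, more than ODC in HF2. This neighbouring region was not tested.

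Further along, chr18:57920067-57921017 was highest in CA3 (11.5, 5.66, 7.64 and 9.89 CPM), followed by PRO at 3.61 and CA1 at 3.48 CPM. DG-M held less than CA3 (log2 difference -4.38, adjusted p = 8.38e-09, 37.7% called). At chr18:57923232-57924128 CA1 (7.14 ± 0.528 CPM) and CA3 (6.81 ± 1.62) stood together, against 1.19 CPM in DG-M (-2.47 from CA1, adjusted p = 0.000152, 40.7% called). Both pyramidal types had low Slc12a2 RNA, so an open intronic region did not go with a high RNA level in every type. The other 3 regions had peaks in 1 to 3 libraries. Insertions are counted only in a library's own peaks, so a library without a peak stands at 0, and the highest values of these regions were 6.36, 6.34 and 5.13 CPM, in the 3 CA1 libraries with a peak at chr18:57932512-57933451.

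Over Slc12a5, INH had the most insertions at both promoters, with 15.5 CPM at the upstream starts (chr2:164960423-164961329) and 36.3 CPM at the downstream starts (chr2:164967872-164968729). ODC had the fewest, 1.81 and 5.04 CPM. At the upstream starts INH exceeded DG-M by 1.23 on the log2 scale (adjusted p = 0.00155, 44.3% of regions called) and CA1 by 1.5 (adjusted p = 0.000149, 47.4% called). At the downstream starts it exceeded CA1 by 0.66 (adjusted p = 0.00725), and its difference from DG-M was 0.07 (adjusted p = 0.814). In chr2:164970578-164971519, an intronic region, INH (30.2 CPM) and OPC (27.6 CPM) were the highest. The OPC value exceeded that of MG by 2.72 (adjusted p = 3.8e-14, 39% called), although OPC held little Slc12a5 RNA.

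The region 34394 bases after the start, chr2:164994767-164995625, which covers 108 coding bases, marked the pyramidal neurons. CA1 held 20.5, 25.0, 17.3 and 17.6 CPM and CA3 18.5, 12.6, 23.7 and 15.5 CPM. DG-M held 7.66 ± 0.451 CPM, less than CA1 by 1.28 on the log2 scale (adjusted p = 0.000497) and less than CA3 by 0.95 (adjusted p = 0.0161). AST had 1 insertion in all, a mean of 0.124 CPM. The RNA of Slc12a5 did not follow this order, being as high in DG-M as in CA1.

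**Figure D2:**
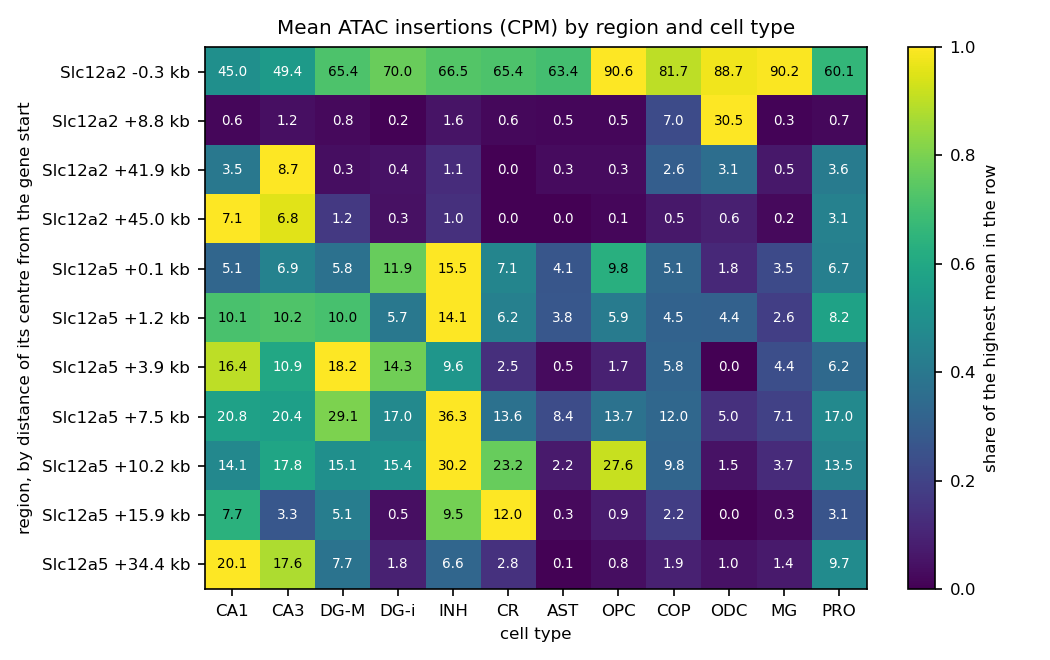
Mean ATAC insertions (CPM, printed in each cell) in the regions over both genes with a peak in all 4 libraries, by cell type, with rows labelled by the distance of the region centre from the gene start and shaded by the share of the highest mean in the row. The region 8840 bases after the Slc12a2 start is filled in ODC (30.5 CPM) and COP (7.02 CPM), and the last Slc12a5 region in CA1 (20.1 CPM) and CA3 (17.6 CPM).

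From immature to mature granule neurons the 2 genes moved in opposite directions. Slc12a5 held 41.2, 17.7, 25.2 and 23.1 CPM in DG-i and 88.5, 74.4, 73.4 and 53.8 CPM in DG-M. Every mature value lay above every immature value. With the library as a block, Slc12a5 was higher in DG-M by 1.61 on the log2 scale (SE 0.152, adjusted p = 3.84e-12), a 3.05-fold difference (95% interval 2.46 to 3.77), and higher in 4 of 4 libraries. Slc12a2 held 86.4, 86.7, 88.1 and 84.0 CPM in DG-i and 54.4, 46.9, 55.5 and 58.8 CPM in DG-M, again without overlap. It was lower in DG-M by 0.46 (log2 difference -0.46, SE 0.114, adjusted p = 0.000679), that is 1.38-fold higher in DG-i (1.18 to 1.62), in 4 of 4 libraries. In this comparison 50.7% of 11682 genes were called, 23.2% higher and 27.4% lower in DG-M, so a call is common here, and the median of all genes tested was -0.05.

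The fall of Slc12a2 is relative to all RNA of the nucleus. Mature nuclei were deeper (median 7738 against 3029 UMIs) and held 0.467 Slc12a2 UMIs each, against 0.297 in DG-i. For Slc12a5 the numbers per nucleus were 0.624 and 0.0972. Scaling by library totals alone moved the median of all genes to -0.27 and the share of calls that were higher from 45.9% to 29.6%, and the differences were then 1.40 for Slc12a5 and -0.68 for Slc12a2. With the chloride genes returned to the clustering the Slc12a5 difference was 1.01 (adjusted p = 6.34e-09), with DG-i then at 38.8 CPM.

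Within DG-i, a small cluster of 90 nuclei stood apart from the other 836. It held 181, 107, 202 and 172 CPM of Slc12a2 (165 ± 40.9, 43 UMIs), against 75.7 to 85.4 CPM in the larger cluster. For Slc12a5 the small cluster had 3 UMIs, with none in HF1 or HF2. The 4 clusters of DG-M ran from 49.0 to 66.2 CPM of Slc12a2 and from 54.8 to 78.0 CPM of Slc12a5, so every mature cluster mean lay on the mature side of the larger immature cluster (79.6 CPM of Slc12a2 and 27.99 of Slc12a5), although single libraries overlapped for both genes. These are descriptions of clusters and were not tested.

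All granule neurons were also ordered by the log2 ratio of mature to immature marker counts and cut into 5 bins of 570 or 571 nuclei, ranges of a score and not types. Slc12a5 rose from 16.9 CPM in bin 1 (99.7% DG-i nuclei) to 53.0 in bin 2 (62% DG-i), and was 73.5, 73.3 and 72.5 CPM in bins 3 to 5. Slc12a2 was 85.5, 75.7, 58.9, 50.9 and 49.4 CPM in bins 1 to 5. The steepest part of the Slc12a5 curve thus lay between bins 1 and 3, where the clusters meet. In nuclei thinned to 2000 UMIs the share with a Slc12a5 UMI was 3.23, 8.66, 11.6, 14.8 and 14.6%, and the value of bin 1 (1.82% to 5.21% in single libraries) lies between the shares of OPC (3.05%) and MG (3.38% of 296 nuclei), the highest of the glial types, so no expression is read from it. The MG level in CPM was lower under the other clusterings, as given for the glia. For Slc12a2 these shares were 14.6, 13.7, 7.91, 8.44 and 8.77%.

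**Figure D3:**
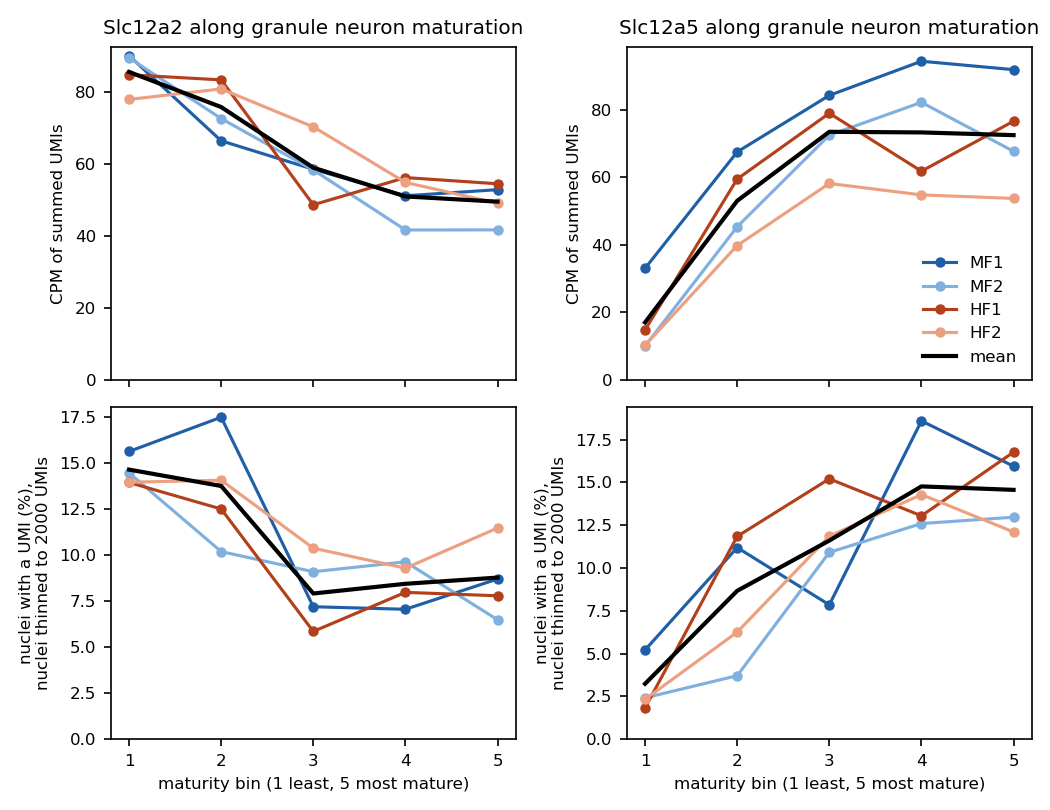
Slc12a2 and Slc12a5 in 5 bins of granule neurons from least to most mature, as CPM of summed UMIs (top) and as the percentage of nuclei with a UMI after thinning to 2000 UMIs (bottom), with 1 coloured line per library and a black line for the mean of the libraries (top) or all nuclei (bottom). Slc12a5 goes from a mean of 16.9 CPM in bin 1 to 72.5 in bin 5, and Slc12a2 from 85.5 to 49.4 CPM.

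The chromatin of Slc12a5 changed between the stages in 5 of the 7 regions tested, 1 lower and 4 higher in DG-M. In this comparison 55.7% of 107390 regions were called, 30.9% higher and 24.7% lower. The median over all regions was 0.18 on the log2 scale and reached 0.34 with library totals alone. The 2 promoters moved in opposite directions in this clustering, and the regions were not tested under another. At the upstream starts the DG-i libraries held 16.3, 10.4, 10.5 and 10.3 CPM and the DG-M libraries 7.79, 3.84, 6.62 and 4.79 CPM, without overlap. This region was lower in DG-M by 1.20 (log2 difference -1.20, SE 0.247, adjusted p = 0.000112), 2.29-fold higher in DG-i (1.62 to 3.24). At the downstream starts, DG-i held 16.0, 20.8, 18.3 and 12.9 CPM and DG-M 31.2, 25.8, 30.7 and 28.6 CPM. Again no value overlapped, and the region was higher in DG-M by 0.63 (SE 0.145, adjusted p = 0.000425), a 1.55-fold difference (1.26 to 1.90).

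The number of insertions at the downstream starts for each insertion at the upstream starts, a ratio formed after the values were seen and given without a test, was 0.984 to 2.00 in the DG-i libraries and 4 to 6.73 in the DG-M libraries. It was 3.38 to 5.54 in CA1, 1.90 to 4.30 in INH and 1.06 to 1.75 in OPC. No DG-i library reached the ratio of any DG-M or CA1 library, whereas CA3 (1.97 to 8.17) overlapped DG-i. Gene-level RNA counts do not separate the KCC2a and KCC2b transcripts, so no isoform level is given.

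The largest difference lay 15926 bases after the start, at chr2:164976242-164977213, a region covering 131 coding bases. It held 0 to 2 insertions per library in DG-i (0 to 0.737 CPM) and 38 to 59 in DG-M (3.94 to 6.39 CPM). The log2 difference was 3.31 (SE 0.587, adjusted p = 1.39e-05), 9.95-fold with a wide interval of 4.35 to 22.7. It was also open in CA1 (5.64 to 10.6 CPM, 210 insertions), in INH (6.18 to 12.0 CPM) and in CR, where 25 insertions gave 2.43 to 24.7 CPM. Its opening was thus not limited to mature granule neurons. At chr2:164994767-164995625 DG-i held 1.52, 2.28, 2.36 and 1.11 CPM and DG-M 7.04, 8.10, 7.84 and 7.69 CPM (log2 difference 1.91, SE 0.365, adjusted p = 3.95e-05, 3.77-fold). Between the promoters, chr2:164961577-164962446 was higher in DG-M by 0.69 (adjusted p = 0.0259), a call lost without MF1, HF1 or HF2 (adjusted p = 0.14, 0.0973 and 0.0531). The intronic regions chr2:164964182-164965137 (0.19, adjusted p = 0.407) and chr2:164970578-164971519 (-0.18, adjusted p = 0.415) did not pass the test, and chr2:164974598-164975552, with a peak in 1 library, was not tested.

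Over Slc12a2 only the start region held enough counts in granule neurons to be tested. It had 83.6, 49.8, 74.1 and 72.6 CPM in DG-i and 75.6, 55.7, 73.5 and 56.8 CPM in DG-M, ranges that overlap. The log2 difference was -0.24 (SE 0.0852, adjusted p = 0.0185), and the call was lost without MF1 (adjusted p = 0.0771), without HF2 (adjusted p = 0.13) and with scaling by relative log expression (adjusted p = 0.137) or by library totals (adjusted p = 0.498). The intronic region of the oligodendrocytes had 3 insertions in DG-i and 31 in DG-M (at most 1.19 CPM in any library).

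**Figure D4:**
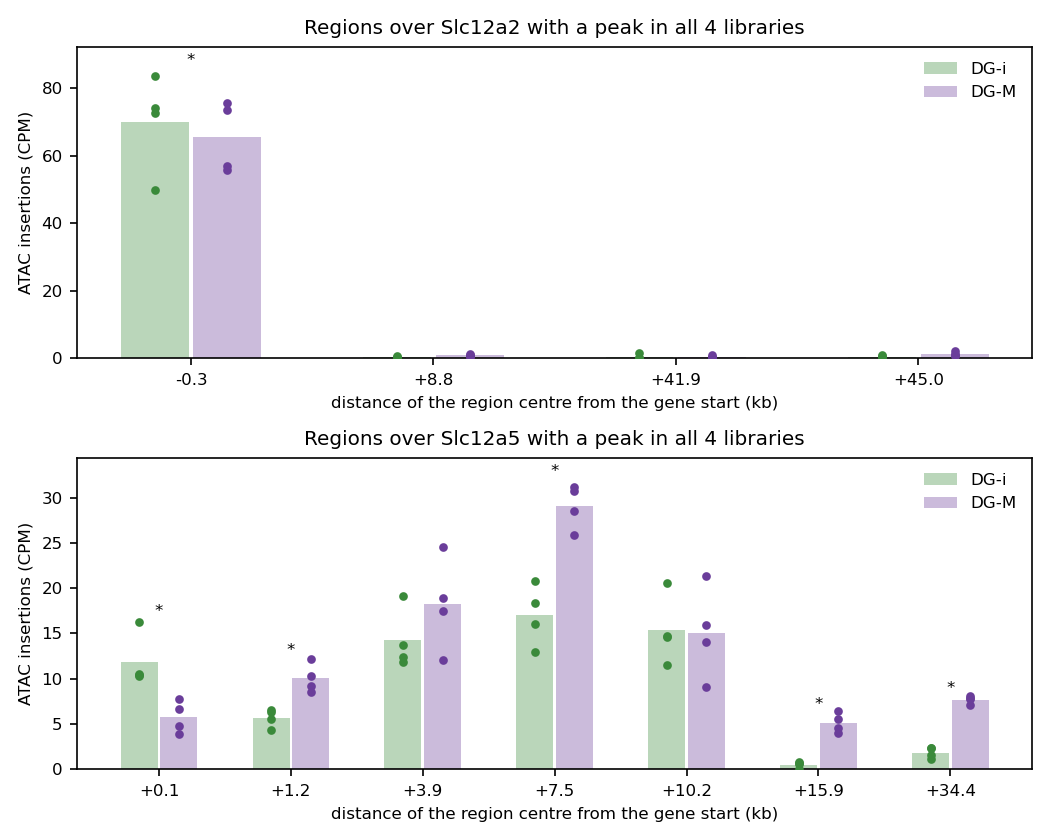
ATAC insertions (CPM) in the regions over each gene with a peak in all 4 libraries, for DG-i and DG-M, with 1 point per library, bars at the mean, an asterisk where the test was passed, and the distance of the region centre from the gene start (kb) on the horizontal axis. At the upstream Slc12a5 starts DG-i (10.3 to 16.3 CPM) lies above DG-M (3.84 to 7.79), and at the downstream starts DG-M (25.8 to 31.2) lies above DG-i (12.9 to 20.8).

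The wider chloride machinery was read from 5 lists, and a place on a list does not mean that the product carries chloride or bicarbonate. The lists held 56 genes, 47 of which held enough counts to be tested between the stages. Of these, 16 were higher and 20 lower in DG-M, where 23.2% of all genes tested were higher and 27.4% lower, and their median was -0.26, beside -0.05 over all genes tested. The split was 12 higher and 25 lower with library totals alone and 19 and 20 with relative log expression. Over all genes, 1962 of 6639 calls (29.6%) were higher with library totals alone and 2976 of 5916 (50.3%) with relative log expression. Of the 9 Slc12 family genes 5 were tested, and Slc12a5 was called higher and Slc12a2 lower. Slc12a8 (-0.50, adjusted p = 0.162) and Slc12a9 (-0.55, adjusted p = 0.0664) did not pass the test. Slc12a4, which encodes KCC1, was too low to be tested (5.06 and 1.08 CPM). With library totals alone Slc12a8 (-0.73, adjusted p = 0.0359) and Slc12a9 (-0.75, adjusted p = 0.0106) were called lower.

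Among the WNK, SPAK and OSR1 kinases and their scaffolds 4 of 7 tested genes were lower in DG-M and 1 was higher, with a median of -0.59, beside 27.4% lower and 23.2% higher over all genes. With relative log expression 4 were lower and 2 higher, where 50.3% of the calls over all genes were higher. All 5 are named, a choice made after their values were seen. Wnk1 fell from 272 to 132 CPM (log2 difference -0.84, adjusted p = 7.65e-12), Wnk2 from 133 to 76.2 CPM (-0.59, adjusted p = 4.48e-06) and Wnk3 from 69.6 to 30.9 CPM (-0.97, adjusted p = 4.05e-08). Oxsr1, which encodes OSR1, fell from 15.6 to 7.74 CPM (-0.84, adjusted p = 0.00702), a call lost without MF1 or HF1 (adjusted p = 0.0631 and 0.0588) and in DESeq2 (adjusted p = 0.112). Stk39, which encodes SPAK, was higher by 0.31 (adjusted p = 0.0103), a call lost without MF2 or HF1 (adjusted p = 0.061 and 0.115). With library totals alone no gene of the list was called higher and 5 were called lower, where 29.6% of the calls over all genes were higher.

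Of 15 tested genes on the chloride channel list 10 were lower and 3 higher (median -0.52), beside 27.4% lower and 23.2% higher over all genes. The list also holds exchangers such as Clcn5, and channel activity was not measured for any member, the Ttyh genes included. Ttyh2 (-3.44), Clcn5 (-2.45), an endosomal chloride and proton exchanger that held 260.3 CPM in DG-i and 41.1 in DG-M, and Clcn1 (-2.08) fell the most. Ano2, a calcium-gated chloride channel, rose by 3.41. Of 8 tested genes on the list of bicarbonate transporters and carbonic anhydrases 6 were higher and none was lower (median 0.98), beside the same 23.2% and 27.4% over all genes. With library totals alone 4 were higher, where 29.6% of the calls over all genes were higher. Slc4a4, a sodium bicarbonate cotransporter that is also on the astrocyte marker list, rose from 153 to 1085 CPM (3.06). Slc4a10, which exchanges bicarbonate and chloride, rose from 216 to 514 CPM (1.48), and Car7, a carbonic anhydrase of mature neurons, from 3.29 to 12.8 CPM (2.11). Car10, on the list by its family name, rose from 28.9 to 215 CPM (3.11), which is not read as a change in carbonic anhydrase activity. Of 12 tested partners and upstream factors of KCC2 5 were higher and 5 lower (median -0.17). Rest, a repressor of neuronal genes, fell by 1.91 and Neto2, which encodes a protein that binds KCC2, by 1.43, while Bdnf, a neurotrophin, rose from 43.5 to 129 CPM (1.76). The adjusted p of these genes ran from 1.82e-31 (Slc4a4) to 1.22e-05 (Rest).

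The diet comparison asks whether excess maternal FA changed either transporter in the offspring. Of 15 tests of the 2 genes over 9 cell types none was called by edgeR's quasi-likelihood test, with adjusted p of at least 0.998, and none had an unadjusted p under 0.05. DESeq2 also called 0 of the 15. In each type 0% of all genes tested were called, and 149 to 270 genes had an unadjusted p under 0.05. The log2 differences, HF minus MF, ran from -0.31 to 0.51. The 95% intervals reached from -0.73 to 0.85 for Slc12a2 and from -1.15 to 1.67 for Slc12a5, and differences within a type's interval are not excluded.

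For Slc12a5 the log2 difference was below 0 in 5 of the 6 types tested, and the diets did not overlap in CA1, CA3 and DG-M. In DG-i, INH and MG its sign turned in some fits that left out a library. Libraries of HF lay below both of MF for 16.5% of all genes tested in CA1, 17.9% in CA3 and 16% in DG-M, and the diets did not overlap in either direction for 23.2% (DG-M) to 28.9% (MG) of genes in the 9 types. In DG-M the MF libraries held 88.5 and 74.4 CPM and the HF libraries 73.4 and 53.8 CPM (log2 difference -0.28, 95% interval -0.69 to 0.12). In CA1 they held 75.7 and 63.4 against 55.0 and 54.8 CPM (-0.28, interval -0.65 to 0.09). In CA3 the values were 55.7 and 42.9 against 41.8 and 41.5 CPM (-0.17), and without MF1 the difference was -0.04. In these 3 types MF1 was the highest library, and without it the difference was -0.20 in CA1 and -0.24 in DG-M. MF1 was also the highest in ODC and AST, where Slc12a5 is low.

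For Slc12a2 the log2 differences lay on both sides of 0, and in 1 of 9 types, DG-M, the diets did not overlap (23.2% of all genes there), with 54.4 and 46.9 CPM in MF and 55.5 and 58.8 CPM in HF (log2 difference 0.25, interval -0.14 to 0.65). In ODC, where the gene is highest, MF held 1023 and 796 CPM and HF 805 and 1057 CPM (0.08, interval -0.51 to 0.66), ranges that overlap. The diet difference was also compared between the stages. That in DG-M minus that in DG-i was 0.21 for Slc12a2 and 0.09 for Slc12a5 (adjusted p = 0.997 for both), where 0% of 11682 genes were called and 465 had an unadjusted p under 0.05. None of the 33 to 47 chloride list genes tested per type was called between the diets.

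**Figure D5:**
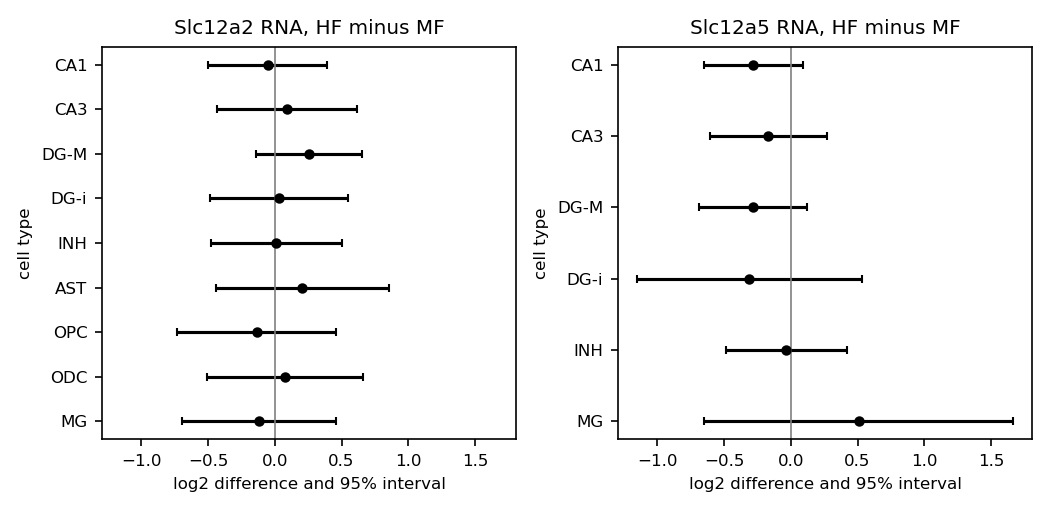
Log2 difference in RNA between HF and MF with its 95% interval, by cell type, for Slc12a2 (9 types) and Slc12a5 (6 types). Every interval spans 0, and the differences run from -0.31 to 0.51.

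In open chromatin 58 tests of the regions in 9 types gave no call. The background was 0% in 6 types, 0.00161% in DG-M (0.000806% higher and 0.000806% lower), 0.0026% in ODC and 0.00649% in MG. A single test had an unadjusted p under 0.05. It was the intronic Slc12a5 region chr2:164970578-164971519 in DG-M, with 21.3 and 15.9 CPM in MF and 14.0 and 9.09 CPM in HF (log2 difference -0.65, interval -1.10 to -0.21, unadjusted p = 0.00457). The adjusted p of all 58 tests was at least 0.999, and the region was chosen for mention after the values were seen.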

How the data were processed

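Single-nucleus RNA and ATAC were measured together in 4 hippocampal libraries. The authors aligned the reads to mm10 with Cell Ranger ARC 2.0.1 and deposited raw counts per nucleus, of UMIs for genes and of transposase insertions for peaks called in each library. Limits taken from the study (500 to 7000 genes, 1000 to 70000 ATAC counts, less than 2% of UMIs mitochondrial) left 11518 nuclei. 2 further ATAC quality filters of the study (nucleosome signal, start-site enrichment) were not applied. From 14.3% to 16.3% of nuclei per library had a Scrublet score above 0.05. Those nuclei stayed in except in an alternative, but clusters with a median score above 0.05 were left out (9.52% of nuclei). ATAC totals were 54182160 to 64146921 insertions per library.

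Peaks of the 4 libraries were merged, and regions with a peak in all of them were tested. Nuclei were clustered in Scanpy 1.11.5 (3000 variable genes without the 56 chloride genes, 20 components, 20 neighbours, resolution 0.8, and 0.5 within excitatory neurons). A cluster was named where at least 3 markers were among its 50 leading genes, a rule settled after the clusters were seen. The transporter genes, gene lists and markers were chosen with earlier results of these data known.

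Counts were summed per library and type (at least 20 nuclei in every library) and tested with edgeR 4.0.16 (quasi-likelihood, TMM, filterByExpr, two-sided, Benjamini-Hochberg adjustment over all genes or regions, 0.05), with the library as a block between types and stages and without a block between diets. The stage fits held only DG-M and DG-i, and each diet fit 1 type. The tests were also run on simulated counts with a fixed dispersion, no library effect and few changed genes. That check does not bear on the scaling between the stages. The rule for named genes took both transporters, the Slc12 family and the 12 called list genes with the largest differences, and for each transporter the 5 genes most like it. An item withheld from this text is not reported here. RNA alternatives were DESeq2 1.42.0, other scalings, filters, clusterings, thinning, blocks and leaving out each library, though not every fit had each of them. ATAC alternatives, for stages and diets only, were other scalings, filters, blocks, region sets, fragment counts and leaving out each library. No ATAC fit was run under another clustering. Intervals of the folds come from the fits.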

Additional observations from a re-analysis of the deposited data

Results flagged for a closer look

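Vascular nuclei were too few to enter any comparison, and in 3 of 4 cases their HF mean lay above that of the control diet. In mural nuclei the mean Slc12a2 level was 408.3 CPM in HF (41 UMIs in 19 nuclei) and 199.0 CPM in MF (17 UMIs in 16 nuclei). In vascular leptomeningeal nuclei Slc12a2 was at 163.3 CPM in HF (46 UMIs in 76 nuclei) and 122.2 CPM in MF (16 UMIs in 39 nuclei). In mural nuclei Slc12a5 was at 50.13 CPM in HF and 39.33 CPM in MF, on 7 and 5 UMIs. The fourth, Slc12a5 in vascular leptomeningeal nuclei, was at 26.01 CPM in HF and 45.26 CPM in MF, on 10 and 5 UMIs. Single libraries overlapped between the diets, with 346 and 52.1 CPM in MF against 573 and 243 CPM in HF for Slc12a2 in mural nuclei, and 37.9 and 206 against 83.2 and 243 CPM in vascular leptomeningeal nuclei. None of these differences was tested.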

How the results depend on the processing

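The stage differences of Slc12a2 and Slc12a5 RNA kept their direction and call under every alternative run, from -0.37 to -0.68 for Slc12a2 and from 1.01 to 1.93 for Slc12a5. Where a value below changed, the cause was not tested unless fewer libraries or genes made it. The number of genes called between the stages was 3838 in thinned nuclei, beside 5918. The Slc12a2 difference between COP and MG turned to -0.55 with the chloride genes returned and to -0.50 at a higher resolution. For Slc12a5, INH over PRO was 0.44 with relative log expression, and the neighbouring pairs called were 0 with that scaling, 4 with the chloride genes returned and 3 at the higher resolution. The region at the Slc12a2 start was at -0.15 with relative log expression, -0.070 with library totals and -0.25 with no library block.

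Leaving out 1 library at a time gave, for the diet difference of Slc12a2, -0.28 to 0.13 in CA1, -0.30 to 0.42 in CA3, -0.023 to 0.087 in DG-i, -0.24 to 0.24 in INH, -0.43 to 0.19 in OPC, -0.21 to 0.33 in ODC and -0.21 to 0.048 in MG. For Slc12a5 it gave -0.68 to 0.44 in DG-i, -0.078 to 0.018 in INH and -0.092 to 0.97 in MG. OPC over DG-i ranged from 0.32 to 0.51, INH over PRO from 0.39 to 0.58, the neighbouring Slc12a5 pairs called from 0 to 1, the region at the Slc12a2 start from -0.33 to -0.17, and chr2:164964182-164965137 from -0.044 to 0.35. At the higher resolution the Slc12a5 diet difference in DG-i was 0.12 and that of Slc12a2 in MG 0.098, and without doublet-scored nuclei Slc12a2 was at 0.052 in MG and -0.0031 in INH.

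The labels number the libraries 1 and 2 in each diet. With these numbers as a replicate block, Slc12a2 in INH was at -0.0064, and 0 (DG-i) to 16 (CA1) genes per type were called between the diets, beside 0 without the block, with neither transporter called. Same-numbered libraries deviated together with a correlation of 0.135 to 0.238 over 9 types, but 2 pairs do not show that the numbers pair the samples.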
